A study of Homo sapiens with 6 samples.

Results

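The zinc transporter and metallothionein genes of HSC-4 cells, an oral squamous carcinoma cell line, were examined after inhibition of Notch signaling. They were taken by gene symbol from the 58884 genes counted, as every protein-coding *SLC39A* gene (the ZIP transporters), every protein-coding *SLC30A* gene (the ZnT transporters), and *MT2A* with the *MT1* genes. This gave 33 genes, namely 14 ZIP, 10 ZnT and 9 metallothionein genes. The family drew attention because *SLC39A2* was much lower after treatment in these same libraries, so the values of *SLC39A2* are given as a description, without a test. The other 32 genes were taken by name.

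Messenger RNA of HSC-4 cells was sequenced after 24 h with 50 μM DAPT (3 libraries) and in a control group (3 libraries) of the same line. DAPT is a γ-secretase inhibitor, which blocks the cleavage that releases the Notch intracellular domain. The labels call the second group control and give no vehicle, the study's methods name a DMSO vehicle, and the sample names inside the control files carry the letters GM, which no source explains. Had those cells been given medium without DMSO, effects of DMSO and of DAPT cannot be told apart. All 6 libraries come from a single cell line at 1 dose and 1 time, and nothing states that replicates were separate cultures, so p-values measure the spread between these libraries, which may be technical.

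Zinc is a structural and catalytic ion in many proteins, and its free level in the cytosol is held low. ZIP proteins move zinc into the cytosol, from outside the cell or from organelles, whereas ZnT proteins move it out of the cytosol. Metallothioneins are small cysteine-rich proteins that bind zinc, copper and cadmium. Metallothionein genes are switched on by the zinc-sensing factor MTF1, which binds metal response elements in their promoters, and some are also switched on by glucocorticoids. In keratinocytes zinc uptake by ZIP2, the product of *SLC39A2*, has been linked to differentiation.

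The libraries held 12276313 to 16317672 counted reads, and 3 reads, taken as the smallest signal, correspond to 0.184 to 0.244 CPM (counts per 1000000 counted reads) before scaling. *HES1*, a direct Notch target, was 47.0 ± 4.003 CPM (SD, n = 3) in control and 27.5 ± 0.402 CPM in DAPT, and fell by 0.77 on the log2 scale (edgeR, Benjamini-Hochberg adjusted p = 7.20e-08). The 8 squamous markers summed to 5226 to 5435 CPM in control and to 3227 to 3371 CPM in DAPT, and *KRT14* among them was at most 3.54 CPM. *KRT5* was the largest part, with a mean of 2701 CPM in control and 1315 CPM in DAPT. *CDH1* instead rose from 512 to 617 CPM (edgeR adjusted p = 0.000139), *DSG3* did not pass (edgeR adjusted p = 0.316), and the other markers fell. Control replicate 1 stood apart, since its 7 fibroblast markers summed to 566 CPM against 50.0 to 58.4 CPM in the other 5 libraries, and all 7 were highest there. Most of the sum in the other 5 was *COL1A1* (48.3 to 54.0 CPM). *COL1A2* was 215 CPM in control replicate 1 and at most 2.02 CPM in the other 5. Endothelial markers summed to 0.650 to 1.49 CPM and leukocyte markers to 0 to 0.217 CPM, with 2 of 4 leukocyte genes at 0 throughout. The part of the fibroblast and squamous RNA in the results was not tested, and results are therefore also given without control replicate 1.

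Of the 33 genes, 25 had enough reads to be tested, namely 12 ZIP, 7 ZnT and 6 metallothionein genes. The remaining 8 were nearly silent at this depth. *SLC30A2* and *SLC30A8*, which load zinc into secretory vesicles of mammary gland and pancreatic β cells, and *MT1B* had 0 reads in all 6 libraries. *MT1A*, *MT1H* and *SLC39A12* had 1 read each in total, *SLC30A10*, a manganese exporter, had 3, and *SLC39A5* had 26. Among the 24 tested genes other than *SLC39A2*, 7 rose and 6 fell at an adjusted p under 0.05, and 11 did not pass. Of all 15001 tested genes, 35.2% were called, 17.2% higher and 18.0% lower, so a call as such was common in this comparison. Control and DAPT libraries did not overlap in 46.3% of all tested genes, 23.6% higher and 22.7% lower, so separate groups were common too. The 3 families differed in their counts. ZIP genes other than *SLC39A2* had 3 higher and 2 lower of 11, ZnT genes 4 higher and 0 lower of 7, and metallothioneins 0 higher and 4 lower of 6. Neither of these counts of 0 changed in edgeR at an unadjusted p under 0.05 (0 each), in DESeq2 (0 each) or in limma-voom (0 each). The median log2 fold change was −0.15 over those 11 ZIP genes, 0.19 over the ZnT genes and −0.63 over the metallothioneins, beside 0.01 over all tested genes. Because the families were chosen with results of these libraries known, the excess over the background is a description.

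**Figure D1:**
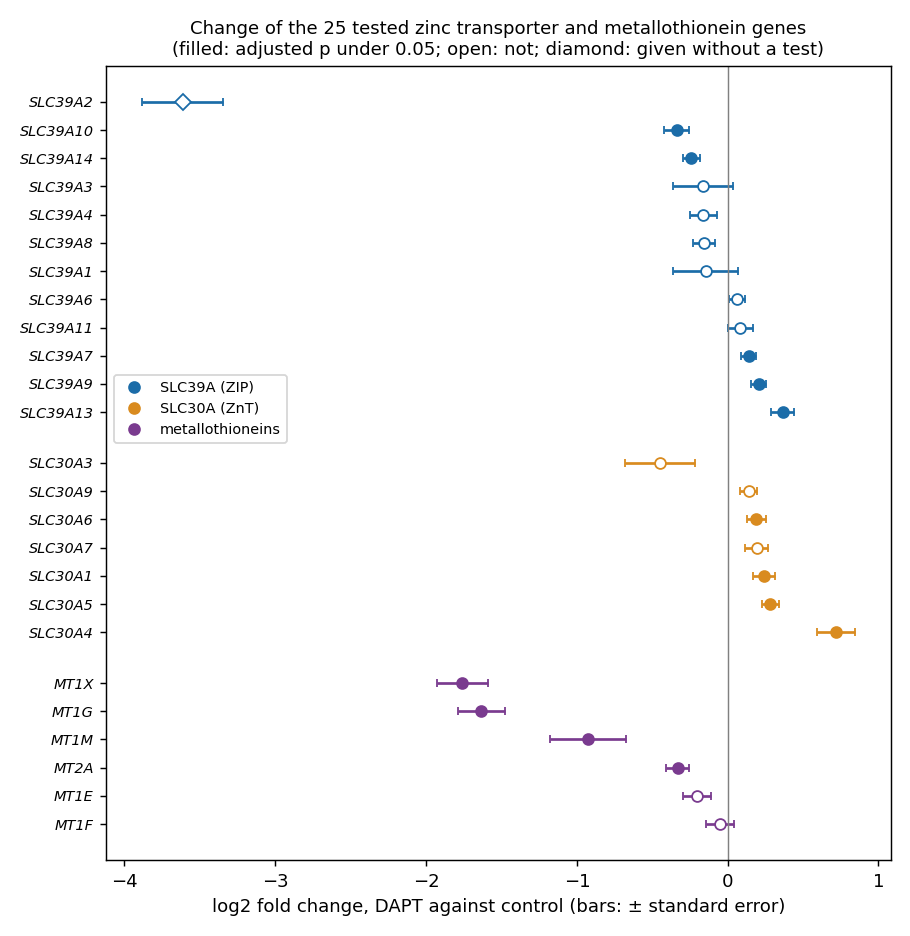
Log2 fold change of the 25 tested genes, DAPT against control, with the standard error as bars (3 libraries per group), grouped by family. Filled points passed an adjusted p of 0.05, open points did not, and *SLC39A2*, at −3.61, is drawn as a diamond because it is given without a test. Metallothionein points lie at or to the left of 0, and 6 of 7 ZnT points lie to the right.

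Without control replicate 1, 9 of the 24 tested genes other than *SLC39A2* were called higher and 11 lower, against 7 and 6 with all libraries. The background was then 18.0% higher and 19.1% lower. The 13 genes called with 6 libraries were called again. The added lower genes were *MT1E*, *SLC39A3*, *SLC39A4*, *SLC39A8* and *SLC30A3*, and the added higher genes were *SLC30A7* and *SLC30A9*.

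The promoters of the genes on which the comparison turns are shown first, because metallothionein control runs through short promoter elements. Each line gives the 250 bases before the RefSeq start (GRCh38.p14), read 5′ to 3′ on the strand of the gene. Capitals mark the metal response element core, TGCACNC or TGCGCNC, on either strand. These forms cannot match at the same place.
SLC39A2 (chr14:20999043-20999292, plus strand): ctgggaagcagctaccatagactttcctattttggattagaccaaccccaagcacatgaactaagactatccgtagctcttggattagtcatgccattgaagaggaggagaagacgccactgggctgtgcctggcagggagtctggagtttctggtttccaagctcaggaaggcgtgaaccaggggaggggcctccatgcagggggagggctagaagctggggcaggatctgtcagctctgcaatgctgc
MT1X (chr16:56682220-56682469, plus strand): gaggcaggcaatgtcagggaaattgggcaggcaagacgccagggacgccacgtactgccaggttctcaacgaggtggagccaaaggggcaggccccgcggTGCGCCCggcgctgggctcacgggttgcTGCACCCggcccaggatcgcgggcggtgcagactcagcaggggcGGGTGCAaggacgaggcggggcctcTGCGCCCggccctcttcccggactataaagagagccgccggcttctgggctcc
MT2A (chr16:56608334-56608583, plus strand): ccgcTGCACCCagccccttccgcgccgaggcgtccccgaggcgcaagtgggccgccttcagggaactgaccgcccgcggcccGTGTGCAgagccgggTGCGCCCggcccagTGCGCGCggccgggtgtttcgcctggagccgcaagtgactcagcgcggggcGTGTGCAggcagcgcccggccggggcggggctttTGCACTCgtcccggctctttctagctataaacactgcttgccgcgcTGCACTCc
SLC30A1 (chr1:211579162-211579411, minus strand): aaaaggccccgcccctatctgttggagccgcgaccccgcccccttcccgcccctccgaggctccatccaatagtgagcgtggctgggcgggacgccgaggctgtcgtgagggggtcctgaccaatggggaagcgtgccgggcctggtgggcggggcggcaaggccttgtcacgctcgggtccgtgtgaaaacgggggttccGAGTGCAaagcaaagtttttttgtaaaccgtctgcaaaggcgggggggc
SLC30A4 (chr15:45522756-45523005, minus strand): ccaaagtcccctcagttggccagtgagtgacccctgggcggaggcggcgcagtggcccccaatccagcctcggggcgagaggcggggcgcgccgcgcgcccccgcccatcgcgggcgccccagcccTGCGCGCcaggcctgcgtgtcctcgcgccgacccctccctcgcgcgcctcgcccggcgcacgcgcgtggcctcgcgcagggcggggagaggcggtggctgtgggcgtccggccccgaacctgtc
The window before *MT2A* held 7 cores and that before *MT1X* held 4. In the whole table of 35116 promoters, windows of this length held at least 1 core in 24.8%, at least 4 in 0.37% and at least 7 in 0.031%. GC content ran from 54.8% (*SLC39A2*) to 79.6% (*SLC30A4*) in the 5 windows shown, and this background was not matched for it. The windows before *SLC30A1*, the ZnT gene best known as an MTF1 target, and *SLC30A4* held 1 core each, and that before *SLC39A2* held 0. A core of RBPJ, the DNA-binding partner of the Notch intracellular domain, was searched as GTGGGAA on both strands. It was found in 5.43% of all windows and in 0 of these 5. RefSeq windows were at hand for 25 of the 33 genes (34 windows), of which 15 windows held a metal response element core, and *SLC39A5* alone held an RBPJ core. No entry was at hand for *MT1A*, *MT1E*, *MT1F*, *MT1G*, *MT1M*, *SLC30A8*, *SLC39A4* and *SLC39A14*. A match is a string of letters and not a measured binding site, and its absence from these windows says nothing of distal sites.

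*SLC39A2* encodes ZIP2, a zinc importer of the plasma membrane. The gene (ENSG00000165794) lies on the plus strand of chr14:20999255-21001871 (GRCh38), and the RefSeq start used above lies inside that span. Its reads numbered 82, 94 and 72 in control and 5, 5 and 10 in DAPT. After scaling these were 5.11, 6.79 and 5.96 CPM in control and 0.325, 0.366 and 0.768 CPM in DAPT. The lowest control library was well above the highest DAPT library, and the DAPT counts were little above the 3 reads taken as the smallest signal. The mean went from 5.95 ± 0.841 to 0.486 ± 0.245 CPM (SD, n = 3), a log2 fold change of −3.61 (SE 0.27), or 12.2-fold lower. The log2 fold change ranged from −4.07 to −3.38 over fits that each dropped a different library, and was −3.72 without control replicate 1. All 1302 windows of 75 bases within its annotated exons were found at no other place in the genome. Windows across splice junctions and spliced transcripts of other genes were not searched.

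The 11 tested paralogs of *SLC39A2* spanned a much narrower range. Their log2 fold changes ran from −0.34 (*SLC39A10*) to 0.36 (*SLC39A13*), with a median of −0.15, and the difference between *SLC39A2* and that median was −3.47 on the log2 scale. In control, *SLC39A2* was at 3.78 ± 0.534 CPM per kilobase of exon (RPKM), beside 3.78 ± 0.997 RPKM for *SLC39A3* and 4.21 ± 0.299 RPKM for *SLC39A10*, levels that did not differ beyond their spread. In DAPT these neighbours in level were at 3.35 ± 0.360 and 3.33 ± 0.283 RPKM, and *SLC39A2* was at 0.309 ± 0.156 RPKM. Neither *SLC39A3* nor *SLC39A10* dropped as *SLC39A2* did. They matched it per length only, since control means were 5.95 CPM for *SLC39A2*, 16.7 CPM for *SLC39A3* and 29.1 CPM for *SLC39A10*. For *SLC39A3*, 9.39% of exonic bases overlapped another gene on the same strand, where reads are not assigned. The nearest tested neighbours of *SLC39A2* on the chromosome moved far less. *METTL17*, 2220 bases away, had a log2 fold change of −0.15 (edgeR adjusted p = 0.0645), and *NDRG2*, 14892 bases away, fell by 0.47 (SE 0.11, edgeR adjusted p = 0.00151). Of all tested genes, 1.77% were called and at least 2-fold lower.

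**Figure D2:**
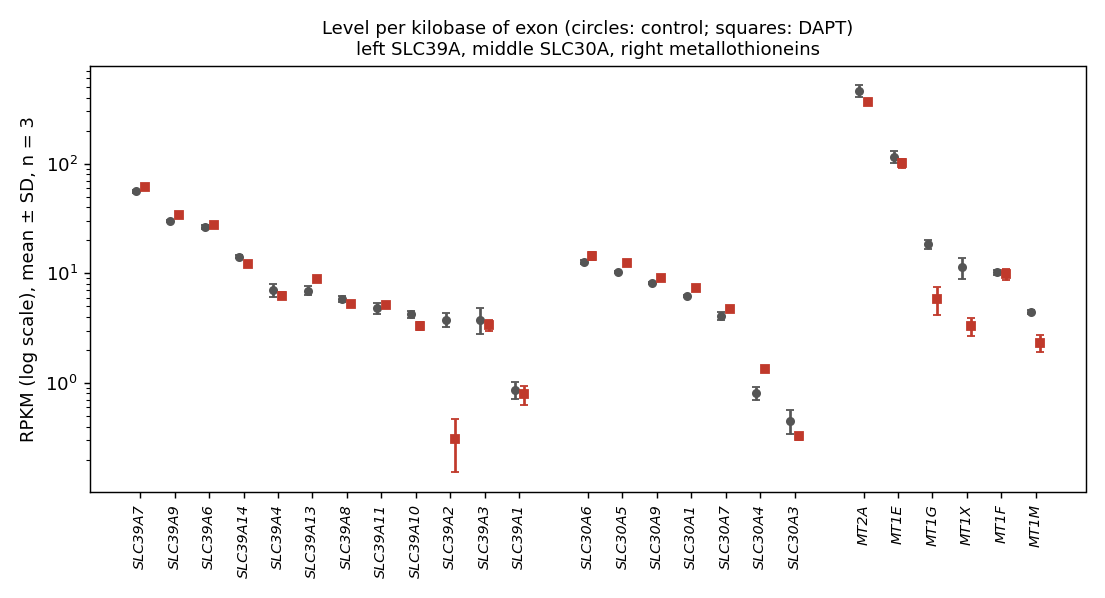
Level of each tested gene per kilobase of exon (RPKM on a log axis, mean ± SD, n = 3), with control as circles and DAPT as squares, ordered by control level within each family. *SLC39A2* started beside *SLC39A3* and *SLC39A10* at 3.78 RPKM and was at 0.309 RPKM in DAPT, whereas most other pairs of points nearly coincide.

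Among the other plasma membrane ZIP genes, *SLC39A10* fell. Its product pairs with ZIP6. It was 31.0, 26.9 and 29.5 CPM in control and 25.3, 21.8 and 22.0 CPM in DAPT. All DAPT libraries were below all controls, and the gene fell by 0.34 (SE 0.08, edgeR adjusted p = 0.00326). *SLC39A6*, which encodes that partner, was 97.0 ± 4.49 CPM in control and 101 ± 2.81 CPM in DAPT, with overlapping groups (log2 fold change 0.06, edgeR adjusted p = 0.387). *SLC39A14*, whose product also carries manganese and iron, was 101, 97.5 and 96.5 CPM in control and 78.6, 85.4 and 86.3 CPM in DAPT. The groups did not overlap, and it fell by 0.24 (SE 0.05, edgeR adjusted p = 0.00156). Its close relative *SLC39A8*, another manganese carrier, had a log2 fold change of −0.16 and did not pass (edgeR adjusted p = 0.103), although its groups did not overlap. Without control replicate 1 it was −0.20 and passed (edgeR adjusted p = 0.0272).

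*SLC39A4*, the intestinal zinc importer mutated in acrodermatitis enteropathica, and *SLC39A3* also differed between fits with and without that library. *SLC39A4* was 30.4 CPM in control replicate 1 and 40.0 and 35.5 CPM in the other controls, against 34.0, 29.5 and 30.7 CPM in DAPT. *SLC39A3* was 11.7 CPM in control replicate 1 and 20.004 and 18.5 CPM in the others, against 12.99, 15.9 and 15.5 CPM in DAPT. In both genes control replicate 1 was the low control, and only that library made the groups overlap. With all libraries both log2 fold changes were −0.16 and neither passed (edgeR adjusted p = 0.179 and 0.568). Without control replicate 1 they were −0.26 and −0.38 and both passed (edgeR adjusted p = 0.00977 and 0.00528). Without control replicate 2, the highest control in both genes, they shrank to −0.06 and −0.01 (edgeR adjusted p = 0.655 and 0.978). *SLC39A1* had a log2 fold change of −0.15 (edgeR adjusted p = 0.634), but 60.8% of its exonic bases overlapped another gene on the same strand, where reads are not assigned, so its 0.864 RPKM in control was not compared with the others.

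The ZIP genes that rose encode transporters of internal membranes. *SLC39A13*, which acts in the Golgi and vesicles and is mutated in a form of Ehlers-Danlos syndrome, was 28.6, 31.99 and 34.8 CPM in control and 41.0, 40.1 and 41.3 CPM in DAPT. Every DAPT library exceeded every control, and it rose by 0.36 (SE 0.08, edgeR adjusted p = 0.000869). *SLC39A9*, a Golgi transporter, was 217, 208 and 212 CPM in control and 249, 249 and 235 CPM in DAPT. It rose by 0.21 (SE 0.05, edgeR adjusted p = 0.00214), again with no overlap. *SLC39A7*, which releases zinc from the endoplasmic reticulum, had the highest level per length of the family, 55.7 ± 1.36 RPKM in control.

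The call of *SLC39A7* was lost in 4 of 6 fits that each left out a library, while its log2 fold change stayed between 0.12 and 0.18. It was 156, 163 and 157 CPM in control and 166, 179 and 180 CPM in DAPT, with no overlap between groups. It rose by 0.14 (SE 0.05, edgeR adjusted p = 0.0352). It was 0.12 without DAPT replicate 2 (edgeR adjusted p = 0.126), 0.12 without DAPT replicate 3 (edgeR adjusted p = 0.135), 0.16 without control replicate 2 (edgeR adjusted p = 0.0545) and 0.13 without control replicate 3 (edgeR adjusted p = 0.125). *SLC39A11*, found in the Golgi and other membranes, had a log2 fold change of 0.08 and did not pass (edgeR adjusted p = 0.465).

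ZnT genes had higher values after DAPT in 6 of 7 cases, and in all 6 the groups did not overlap. Over all tested genes, 23.6% were higher without overlap. *SLC30A4*, which fills endosomal and lysosomal vesicles with zinc, changed most. It was 7.41, 6.07 and 5.80 CPM in control and 10.98, 10.2 and 10.8 CPM in DAPT. It rose by 0.72 (SE 0.12, edgeR adjusted p = 0.000118), and by 0.84 without control replicate 1, the highest control. Even so it remained the second lowest of the tested ZnT genes per length, at 0.801 ± 0.108 RPKM in control and 1.33 ± 0.0541 RPKM in DAPT.

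*SLC30A5* and *SLC30A6* encode a pair that works together in the early secretory pathway and supplies zinc to enzymes such as alkaline phosphatase. *SLC30A5* was 56.9, 56.3 and 55.4 CPM in control and 69.6, 65.3 and 70.4 CPM in DAPT. The groups were clearly apart, and it rose by 0.28 (SE 0.06, edgeR adjusted p = 0.000661). *SLC30A6* was 71.8, 68.6 and 65.2 CPM in control and 75.5, 86.1 and 73.1 CPM in DAPT. It rose by 0.19 (SE 0.06, edgeR adjusted p = 0.0245), with DAPT replicate 2 high and the other DAPT libraries just above the controls. Without DAPT replicate 2 the log2 fold change shrank to 0.12 (edgeR adjusted p = 0.222). It was 0.19 without control replicate 2 (edgeR adjusted p = 0.0676) and 0.15 without control replicate 3 (edgeR adjusted p = 0.133), where it did not pass either. *SLC30A7*, which acts in the same compartment, had the same log2 fold change of 0.19 and missed the threshold (edgeR adjusted p = 0.0524). It passed without control replicate 1 (0.22, edgeR adjusted p = 0.0231) and without DAPT replicate 3 (0.23, edgeR adjusted p = 0.0451), and was 0.13 without control replicate 2 (edgeR adjusted p = 0.263).

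*SLC30A1*, the zinc exporter of the plasma membrane, was 35.7, 37.4 and 36.8 CPM in control and 42.1, 41.4 and 46.3 CPM in DAPT. All DAPT libraries were higher, and it rose by 0.24 (SE 0.07, edgeR adjusted p = 0.0124). Without DAPT replicate 3, the highest library, the log2 fold change was 0.19 and did not pass (edgeR adjusted p = 0.0755). *SLC30A9*, a mitochondrial transporter, was 60.3, 57.8 and 58.5 CPM in control and 63.0, 65.6 and 65.9 CPM in DAPT. Its groups were apart by a few CPM, and its log2 fold change of 0.14 did not pass (edgeR adjusted p = 0.0666). It passed without control replicate 1 (0.16, edgeR adjusted p = 0.0349) and with library sizes as the only scaling (0.19, edgeR adjusted p = 0.0154). *SLC30A3*, known for loading synaptic vesicles, was the tested ZnT gene with a value below 0, at −0.45 (edgeR adjusted p = 0.140), and without control replicate 1 it was −0.63 (edgeR adjusted p = 0.0425). Without control replicate 3 it was −0.27 (edgeR adjusted p = 0.464). Its level in control was low, at 0.453 ± 0.112 RPKM.

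**Figure D3:**
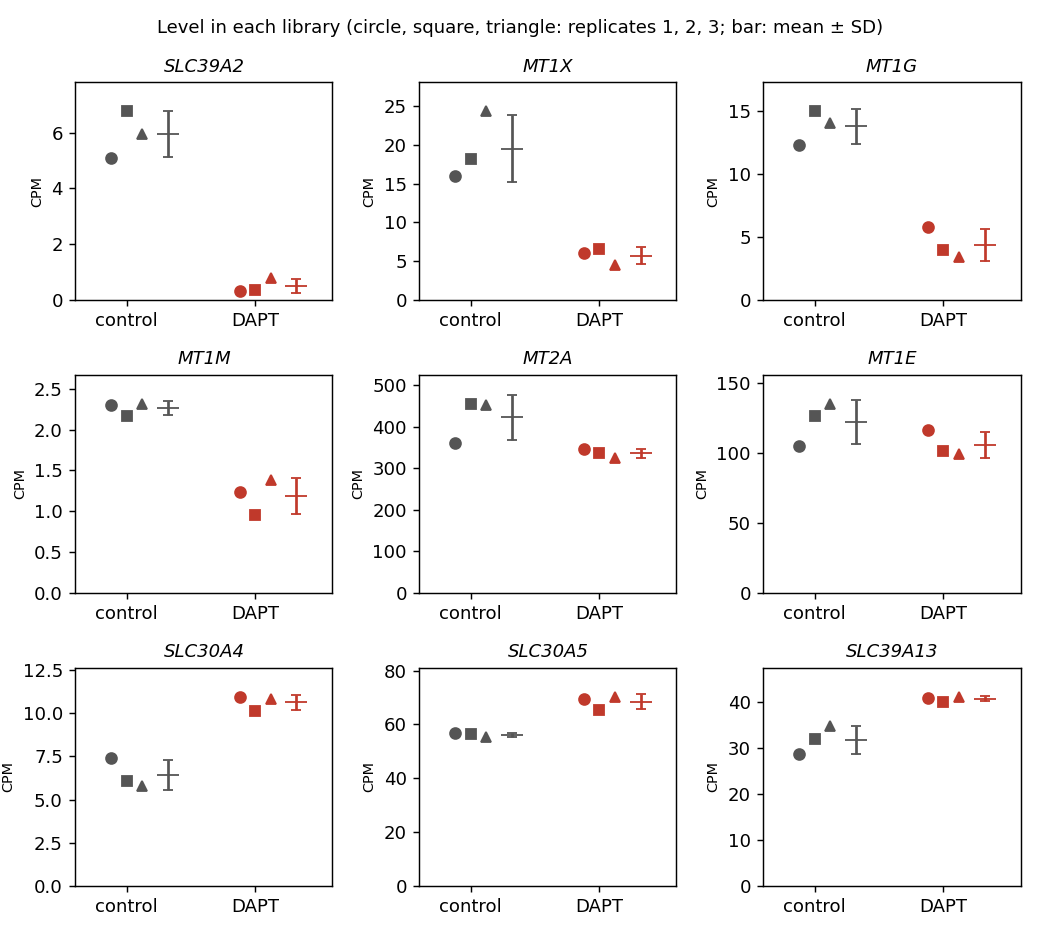
CPM in each library for 9 genes, with replicates 1, 2 and 3 as circle, square and triangle and the mean ± SD as a bar (3 control, 3 DAPT). Groups are separate for every gene drawn except *MT1E*, and for *MT2A* control replicate 1 (360 CPM) lies close to the DAPT libraries (324 to 345 CPM).

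Among metallothioneins, 2 genes of low to middle level changed far more than the abundant ones. *MT1X* was 16.005, 18.2 and 24.4 CPM in control and 6.11, 6.51 and 4.46 CPM in DAPT. Every DAPT library was below every control, and *MT1X* fell by 1.76 (SE 0.17, edgeR adjusted p = 4.78e-06). *MT1G* was 12.3, 15.0 and 14.1 CPM in control and 5.78, 3.95 and 3.38 CPM in DAPT. Again the groups lay apart, and *MT1G* fell by 1.63 (SE 0.15, edgeR adjusted p = 7.47e-08). Both encode zinc-binding metallothioneins of the MT-1 group, and both passed with each library left out in turn.

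*MT1M*, a low-level member of the same group, was 2.30, 2.17 and 2.32 CPM in control and 1.23, 0.951 and 1.38 CPM in DAPT. It fell by 0.92 (SE 0.25, edgeR adjusted p = 0.00679), without overlap. *MT2A*, the main metallothionein of most tissues, was 360, 455 and 451 CPM in control and 345, 336 and 324 CPM in DAPT. It fell by 0.33 (SE 0.08, edgeR adjusted p = 0.00557), and by 0.43 without control replicate 1, the lowest control (edgeR adjusted p = 2.18e-08). The DAPT libraries were close to each other, and the gap to control replicate 1 was narrow.

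*MT1E* and *MT1F* did not pass. *MT1E*, second in level, was 105, 126 and 135 CPM in control and 116, 101 and 99.2 CPM in DAPT, so that control replicate 1 lay among the DAPT libraries. Its log2 fold change was −0.20 (SE 0.09, edgeR adjusted p = 0.129). Without control replicate 1 it was −0.30 and passed (edgeR adjusted p = 0.000387), and without control replicate 3, the highest control, it was −0.13 (edgeR adjusted p = 0.252). *MT1F* was 18.8 ± 1.09 CPM in control and 18.1 ± 2.08 CPM in DAPT, with a log2 fold change of −0.05 (SE 0.09, edgeR adjusted p = 0.707), although its control CPM was close to that of *MT1X*. Its sign turned to 0.03 without DAPT replicate 3.

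**Figure D4:**
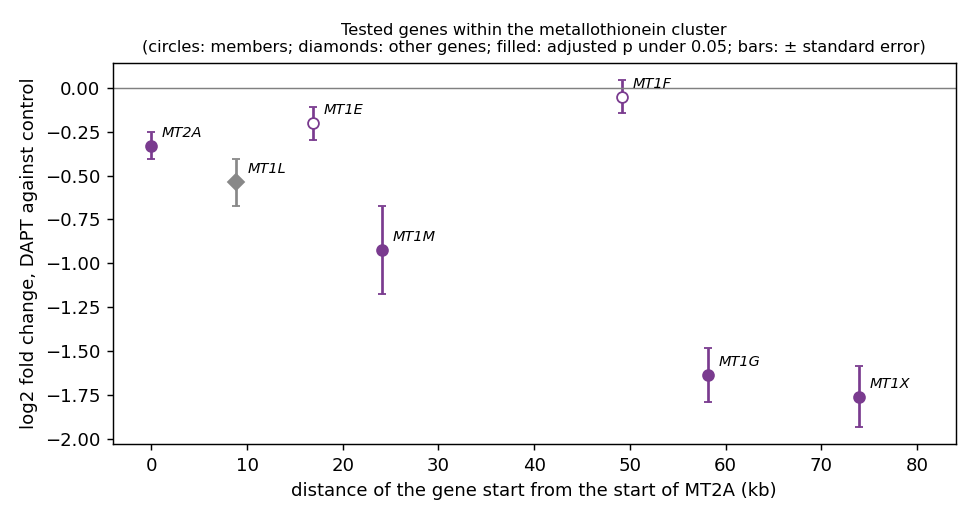
Log2 fold change (± standard error) of the tested genes within the metallothionein cluster against the distance of their starts from the start of *MT2A* in kb. Circles are the 6 tested members, the diamond is the pseudogene *MT1L*, and filled symbols passed an adjusted p of 0.05. *MT1F*, at −0.05, lies between *MT1M*, at −0.92, and *MT1G*, at −1.63.

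All 9 metallothionein members lie within 75.6 kb of chr16:56608584-56684196 (GRCh38), and their changes did not follow a single step along it. *MT1F*, 49.1 kb from the start of *MT2A*, was near 0 while *MT1M* at 24.1 kb, *MT1G* at 58.1 kb and *MT1X* at 73.9 kb fell. *MT1G* is read from the minus strand and the other tested members from the plus strand. The nearest tested genes outside the cluster were *BBS2*, 88497 bases away, with a log2 fold change of 0.07 (edgeR adjusted p = 0.444), and *NUP93*, 45922 bases away, which fell by 0.31 (edgeR adjusted p = 0.000246). The fall at *NUP93* was close to that of *MT2A* in size, but *NUP93* lies past the *MT1X* end of the cluster and *MT2A* at the other end. Of all tested genes, 18.0% were called lower.

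The unequal change was also seen within each library, where no scaling between libraries enters. The log2 ratio of reads of *MT1X* to reads of *MT2A* was −4.49, −4.64 and −4.21 in control and −5.82, −5.69 and −6.18 in DAPT. The ratio was lower in every DAPT library, by −1.45 on average. For *MT1G* the difference was −1.37 and for *MT1M* −0.62, whereas for *MT1E* it was 0.12 and for *MT1F* 0.26. Each of the 5 ratios separated the groups, with an exact two-sided permutation p = 0.1, which is the smallest that 3 against 3 libraries can give (0.1 after Benjamini-Hochberg adjustment over the 5). All 5 share *MT2A* as denominator, which fell by 0.33 itself, so they are not independent of one another. The log2 fold changes of *MT1E* and *MT1F* themselves were −0.20 and −0.05. *MT2A* made up 69.8 to 71.5% of metallothionein reads in control and 69.8 to 72.2% in DAPT, with overlapping ranges. *MT1E* went from 19.8 to 20.9% to 21.7 to 23.5%, *MT1X* from 2.86 to 3.79% to 0.994 to 1.40% and *MT1G* from 2.18 to 2.39% to 0.754 to 1.17%, each without overlap.

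Metallothionein genes are close copies of one another, so 75-base windows of their annotated exons were searched for in the genome. Of these, 91.3% were found at no other place for *MT1E*, 95.2% for *MT1G*, 99.7% for *MT1M*, and 100% for *MT1F*, *MT1X* and *MT2A*. The exons of *MT1X* and *MT2A* together run unbroken from gene start to gene end. Spliced transcripts were not searched, so reads shared between them were not tested. Another gene on the same strand overlapped 18.6% of the exonic bases of *MT1X*. *MT1XP1*, a processed pseudogene copied from *MT1X* on chromosome 1, had 114, 114 and 94 reads in control and 43, 17 and 23 in DAPT. Summing its reads with those of *MT1X*, a step chosen after seeing the data, gave a log2 fold change of −1.82 (edgeR adjusted p = 5.08e-08).

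Summed over each family, metallothionein CPM was 512, 636 and 645 in control and 495, 466 and 448 in DAPT, and control replicate 1 was the lowest control. Summed ZnT CPM was 271, 261 and 262 in control and 304, 313 and 306 in DAPT. Summed ZIP CPM was 752, 755 and 753 in control and 774, 786 and 780 in DAPT, a much smaller relative difference. None of these sums overlapped between groups. They weight each family by its most abundant genes, and in particular *SLC39A2* contributes little to the ZIP sum.

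Per length, the order of levels in control differed in evenness between families. *MT2A* was at 461 ± 59.0 RPKM and *MT1E* at 116 ± 14.9 RPKM, followed by *MT1G* at 18.4 ± 1.87 RPKM. *MT1X* at 11.3 ± 2.53 RPKM and *MT1F* at 10.2 ± 0.588 RPKM did not differ beyond their spread, and *MT1M* was lowest at 4.43 ± 0.165 RPKM. This order depends on the annotated exon lengths, such as 1727 bases for *MT1X* and 750 for *MT1G*. In CPM, *MT1X* (19.5) was above *MT1G* (13.8) in control. In DAPT *MT1F*, at 9.75 ± 1.12 RPKM, lay above *MT1G* at 5.83 ± 1.67 and *MT1X* at 3.29 ± 0.630 RPKM. Among ZIP genes *SLC39A7* was followed by *SLC39A9* at 29.7 ± 0.615, *SLC39A6* at 26.3 ± 1.22 and *SLC39A14* at 14.2 ± 0.383 RPKM. *SLC39A4* at 7.01 ± 0.956 and *SLC39A13* at 6.95 ± 0.671 RPKM did not differ beyond their spread, and *SLC39A8* at 5.88 ± 0.354 and *SLC39A11* at 4.78 ± 0.525 RPKM came next. ZnT genes ranged from 12.7 ± 0.612 RPKM for *SLC30A6* through 10.3 ± 0.133 for *SLC30A5*, 8.18 ± 0.176 for *SLC30A9*, 6.21 ± 0.148 for *SLC30A1* and 4.09 ± 0.319 for *SLC30A7* to the low *SLC30A4* and *SLC30A3*.

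**Figure D5:**
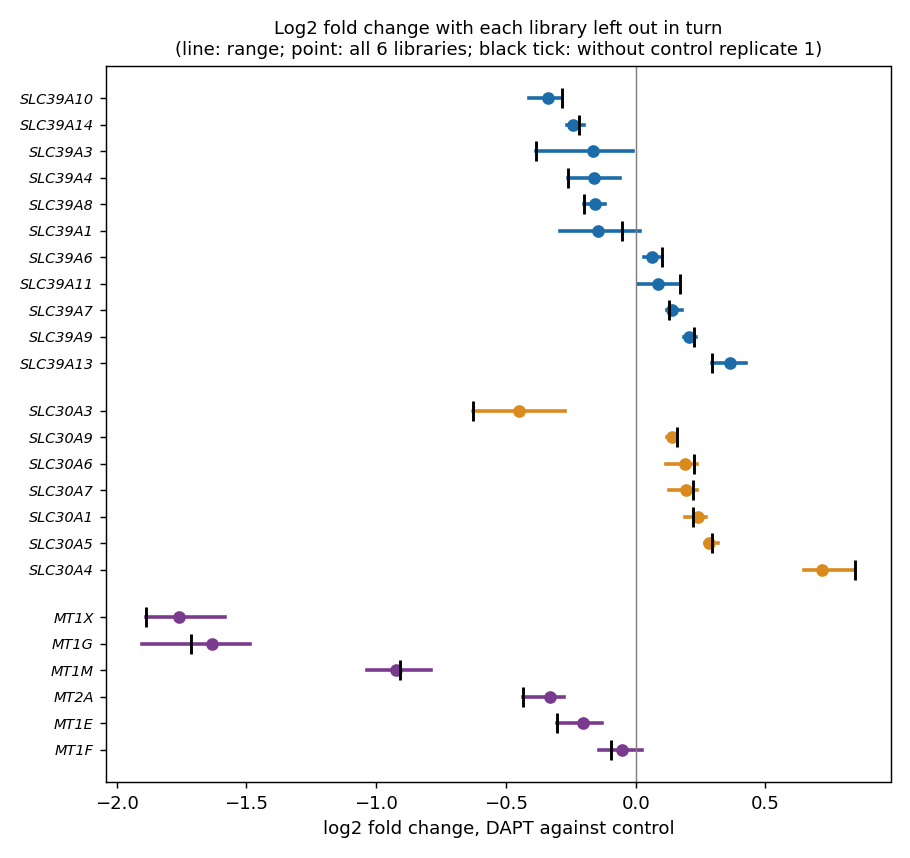
Log2 fold change of the tested genes other than *SLC39A2* with all 6 libraries (points), its range with each library left out in turn (lines) and its value without control replicate 1 (black ticks). The tick of *SLC39A3*, at −0.38, lies at the far end of its line, and the lines of *MT1X*, *MT1G* and *MT1M* stay below −0.79.

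Other metal genes were read against the same background of 17.2% of tested genes called higher and 18.0% lower. Of 11 genes in a zinc list (the sensor MTF1, zinc channels, ZNG1 chaperones and the tissue-restricted *MT3* and *MT4*), 8 were tested, 2 rose and 0 fell, and the median log2 fold change was 0.12. The count of 0 was the same in edgeR at an unadjusted p under 0.05, in DESeq2 and in limma-voom (0 each). *MTF1*, the metal-sensing transcription factor, was 31.3, 32.7 and 34.9 CPM in control and 37.8, 37.1 and 37.3 CPM in DAPT, and rose by 0.19 (SE 0.07, edgeR adjusted p = 0.0475). *TRPM7*, a channel kinase that passes zinc and magnesium, rose by 0.16 (edgeR adjusted p = 0.0490). Both lay just inside the threshold, and neither passed in DESeq2 or in most fits that left out a library. *MTF1* passed only without control replicate 3 among those fits, and was 0.15 without control replicate 1 (edgeR adjusted p = 0.0948). *TRPM7* passed only without control replicate 1, at 0.25 (edgeR adjusted p = 0.000263), and was 0.11 without control replicate 3 (edgeR adjusted p = 0.249). With 2 of 8 called, the list lay near the background.

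Genes of copper and iron were set beside them, since metallothioneins also bind copper. Of 8 copper genes, all tested, 1 rose and 2 fell, with a median of 0.06, and the share called was close to the 35.2% of all tested genes. *ATP7A*, a copper-exporting ATPase, rose by 0.39 (edgeR adjusted p = 0.000695), the copper chaperone *ATOX1* fell by 0.33 (edgeR adjusted p = 0.00242), and the copper transporter *SLC31A2* fell by 0.26 (edgeR adjusted p = 0.0362). *SLC31A2* did not pass without control replicate 1 (−0.19, edgeR adjusted p = 0.140), DAPT replicate 1 (−0.21, edgeR adjusted p = 0.136) or DAPT replicate 2 (−0.25, edgeR adjusted p = 0.106), nor with a replicate block (edgeR adjusted p = 0.05003). Of 14 iron genes 13 were tested, 2 rose and 4 fell, with a median of −0.10, beside 35.2% of all tested genes called in either direction. The ferritin chains *FTH1* and *FTL*, which store iron, each rose by 0.39 (edgeR adjusted p = 1.18e-06 and 1.91e-06). The transferrin receptor *TFRC* fell by 0.20 (edgeR adjusted p = 0.00627), the ferrireductase *STEAP3* by 0.22 (edgeR adjusted p = 0.0195), the ferritin autophagy receptor *NCOA4* by 0.16 (edgeR adjusted p = 0.00929) and the iron chaperone *PCBP1* by 0.21 (edgeR adjusted p = 0.00668). Without DAPT replicate 2 neither *STEAP3* (−0.22, edgeR adjusted p = 0.0534) nor *NCOA4* (−0.15, edgeR adjusted p = 0.0520) passed, and *STEAP3* did not pass without DAPT replicate 1 (−0.21, edgeR adjusted p = 0.0507).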

How the data were processed

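Messenger RNA of HSC-4 cells was sequenced in 3 control and 3 DAPT libraries, grouped by their titles. Per the file headers, the deposited values were raw counts per gene that the authors made with featureCounts 1.6.3 from HISAT2 alignments of single-end reads to GRCh38, using the strand. The submitters' processing notes also name FastQC, Trim Galore, HTSeq and DESeq2, and bcl2fastq 2.19. Gene symbols and biotypes were matched by identifier to GENCODE 44 for 58472 of 58884 genes.

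Counts were analysed in R 4.3.3 with edgeR 4.0.16. Genes passing filterByExpr (minimum count 10) were scaled by TMM and tested with the robust quasi-likelihood F test, group being the only term, with Benjamini-Hochberg adjustment over 15001 genes and a threshold of 0.05. The test was checked on simulated counts in which a small set of genes changed 2-fold, so smaller changes were not checked. The standard error is the log2 fold change divided by the square root of F. Levels are counts per 1000000 reads (CPM) with TMM-scaled library sizes, and RPKM divides them by exon length in the files. Ratios were tested by exact permutation. Alternatives used DESeq2 1.42.0, limma 3.58.1, other scalings and filters, and each library left out. The members and lists were chosen with earlier results of these data known. Every tested member is named, with values per library for those passing the threshold and the most abundant of each family. Protein identity between ZIP members was not analysed here. Promoters came from RefSeq. Total counts of 12276313 to 16317672 limit precision for genes of few reads.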

Additional observations from a re-analysis of the deposited data

How the results depend on the processing

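For the 24 tested members other than *SLC39A2*, 358 of 384 values over 16 other settings kept their direction and their side of the threshold. Of the rest, 11 no longer passed, 13 newly passed and 0 called values reversed. Another 2 that had not passed changed sign (*MT1F* and *SLC39A1*, each with 1 DAPT library left out). The count of members called higher, 7 with the settings used, was 4 at an adjusted p under 0.01 and 0 with a 2-fold limit, and 5 to 9 with each library left out. The count called lower was 6, or 7 with *SLC39A2*, whose change chose the family and supports nothing here. With *SLC39A2* counted, it was 3 with the 2-fold limit (the others being *MT1X* and *MT1G*) and 7 to 12 with each library left out, the 12 being without control replicate 1. DESeq2 called 5 members other than *SLC39A2* higher and 6 lower, losing *SLC39A7* and *SLC30A6*. The difference between *SLC39A2* and the median of its paralogs was −3.93 to −3.35 with each library left out, the former without DAPT replicate 3.

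Over all genes, 2574 higher and 2707 lower became 1516 higher and 1822 lower at an adjusted p under 0.01, and 90 higher and 266 lower with the 2-fold limit. The counts were 1901 to 2726 higher and 2190 to 2892 lower with each library left out. With library sizes as the only scaling, 3445 were higher and 2156 lower, which shifted the median log2 fold change from 0.01 to 0.06. Genes of the 3 metal lists called higher, 5 with the settings used, were 3 under DESeq2, a likelihood ratio test, RLE scaling, upper quartile scaling, a fit that was not robust and an adjusted p under 0.01, 0 with the 2-fold limit, and 3 to 6 with each library left out. Those called lower, 6 with the settings used, were 3 with library size alone, 0 with the 2-fold limit, and 3 to 7 with each library left out, the 3 being without DAPT replicate 2. The cause was not tested.

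Replicate numbers are shared by the groups, but same-numbered libraries did not deviate together (correlations −0.0162 to 0.0282 over 14427 genes). With a replicate block 7 members were higher and 7 lower, *SLC39A2* counted, and the 13 other called members remained. Over all genes, 2558 were higher and 2737 lower with the block. With 3 libraries per group and 5 to 10 reads of *SLC39A2* in each DAPT library, the size of its change is imprecise. That change chose the family and is given as a description.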

Other observations

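Metallothionein genes outside the protein-coding *MT1* and *MT2A* set numbered 12, of which 9 were pseudogenes and 7 had any reads. *MT1XP1*, a processed copy of *MT1X* on chromosome 1, had a log2 fold change of −1.96 (SE 0.20, edgeR adjusted p = 1.52e-07), close to that of *MT1X* itself (−1.76). All of its 112 windows of 75 bases were found at no other place in the genome. Spliced transcripts were not searched, so this cannot tell its reads from those of spliced *MT1X*. *MT1L*, a transcribed pseudogene 8.89 kb from the start of *MT2A*, had 183, 202 and 142 reads in control and 116, 109 and 138 in DAPT, and fell by 0.54 (SE 0.13, edgeR adjusted p = 0.00368). *MT1P3* had a log2 fold change of −0.31 and did not pass (edgeR adjusted p = 0.441). *MT3*, the metallothionein of brain, *MT4*, that of stratified epithelium, and *MT1HL1* had 0 reads in all 6 libraries. These genes were chosen after their values were seen.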
